A study of Mus musculus with 6 samples.

Results

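The constitutive proteasome subunits and proteasome activators of mouse CD8⁺ T cells were described after treatment with sphingosine-1-phosphate (S1P), the lipid ligand of S1PR1. The members were the protein-coding genes whose mouse symbols begin with Psma, Psmb, Psmc, Psmd or Psme followed by a number, without the immunoproteasome genes Psmb8, Psmb9 and Psmb10, which were compared separately. The rule used names only and no measured value, and gave 40 of the 56941 genes listed, with 16 genes of the 20S core, 20 of the 19S regulatory particle and 4 of the PA28 and PA200 activators. Enough counts for a test were present for 38 of the 40, among 13299 genes tested in all, and the other 2 members, Psma8 and Psmb11, had at most 6 counts in any sample. The study asked how S1P changes transcription in activated CD8⁺ T cells, and 3 samples treated with S1P are set against 3 treated with vehicle. All 6 samples were labelled as purified naive CD8⁺ T cells from the spleens of B6 mice, while the study's methods allow total splenocytes as well as purified naive T cells at the start of such cultures. Both groups were activated for 3 days by antibodies to CD3, bound to the plate, and to CD28 with recombinant IL-2, and after 24 h one group received S1P at 5 µM and the other the vehicle alone. The labels call the 3 samples of a group biological replicates and give no other detail, so p-values measure the spread between these samples.

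The proteasome is the large protease that degrades proteins tagged with ubiquitin. Its 20S core is a barrel of stacked rings, with alpha subunits (Psma) in the outer rings that gate the entrance and beta subunits (Psmb) in the inner rings, of which Psmb5, Psmb6 and Psmb7 carry the active sites. The 19S regulatory particle caps the barrel, and its ATPases (Psmc) unfold substrates while its non-ATPase subunits (Psmd) bind ubiquitin, remove it and hold the lid together. PA28 and PA200 (Psme) are caps that open the core without ATP. Activated T cells produce many proteins and divide fast, and interferon-γ induces the immunoproteasome subunits, which replace the constitutive catalytic subunits in newly built cores and alter the peptides that are cut for presentation on MHC class I.

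Total counts ranged from 12048880 to 17384084 per sample, and the 38 tested members lay between 19.5 and 461 CPM (counts scaled to library size with edgeR's TMM factors) on average in vehicle-treated samples. Values of single samples are given in CPM in the order of replicates 1, 2 and 3 of each group. S1P-treated replicate 2 stood apart from the other samples, with 7.80% of its counts on mitochondrially encoded genes against 4.10% to 4.93% in the other 5, and the chi-square statistic per gene was 17.8 and 31.4 between it and the other S1P-treated samples, against 3.77 to 5.97 for the other replicate pairs. All 8 genes listed as CD8 T cell markers were detected, at a sum of 1689.6 to 1874 CPM in vehicle-treated and 1578 to 1742 CPM in S1P-treated samples. Of these, Cd3d, Cd3e, Cd3g, Cd2, Lck and Trac are also expressed by CD4 T cells, so the sum does not measure CD8 T cells alone. Cd8a (-0.67) and Cd8b1 (-0.55) were lower and Cd2 (0.33) higher on the log2 scale after S1P. On average Cd8a was at 222 CPM with vehicle and 139 CPM with S1P, and Cd4 at 203 and 218 CPM. Transcripts of 8 B cell markers were also present, at a sum of 624 to 782 CPM in vehicle-treated and 625 to 718 CPM in S1P-treated samples, of which Ms4a1 and Cd22 passed both thresholds in the lower direction and the other 6 did not pass, among them Pax5 at 0.33 with its S1P-treated samples all above (adjusted p = 0.0699 by edgeR). The 5 CD4 T cell markers, of which 4 could be tested and Zbtb7b and Cd40lg were higher, summed to 230 to 273 CPM and 253 to 320 CPM. Lists of 8 myeloid and 4 NK cell markers summed to at most 6.67 and 3.16 CPM in any sample, with the myeloid gene Lyz2 at no more than 0.176 CPM. In bulk RNA, fewer cells of a type and less RNA per cell cannot be told apart, and the part of the B cell and CD4 T cell transcripts in the results on proteasome genes was not tested.

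Many of the proteasome genes were lower after S1P, each by a small amount. Of the 38 tested members, 33 had a log2 fold change below 0, where 48.5% of all tested genes did, and the median was -0.24, against 0.01 over all tested genes. Past both thresholds of the study, which are an adjusted p of no more than 0.05 together with a log2 fold change (S1P-treated against vehicle-treated, also written as log2 change) of 0.3 or more in size, 13 members (34.2%) were lower, beside 10.4% of all tested genes, and no member was higher, beside 12.7% of all tested genes (quasi-likelihood test of edgeR, p-values adjusted over all 13299 genes). At the adjusted p alone 22 members (57.9%) were lower, beside 13.8% of all tested genes, and 0 were higher. Fits without 1 library gave 14 to 27 such members. There were 14 without vehicle-treated replicate 2 and 14 without vehicle-treated replicate 3, beside 8.96% and 7.62% of all tested genes in these fits. The 27 came without S1P-treated replicate 2, beside 14.7% of all tested genes. No member was higher at an unadjusted p under 0.05 in edgeR, DESeq2 or limma-voom. Genes at these levels were called lower more often than all genes, since 15.0% of the 6457 tested genes between 19.5 and 461 CPM passed both thresholds in that direction and 21.6% passed the adjusted p. For 26 of the 38 (68.4%) all 3 S1P-treated samples lay below all 3 vehicle-treated samples, beside 22.5% of all tested genes, and for 0 of the 38 did they all lie above, beside 23.0% of all tested genes.

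By complex, 4 of 14 tested 20S genes (28.6%), 8 of 20 19S genes (40%) and 1 of 4 activators (25%) were lower past both thresholds. Over all tested genes the share was 10.4%, and over tested genes at the members' levels it was 15.0%. The call among the activators is 1 gene and cannot be told from these shares. The median log2 fold changes of the 20S, 19S and activators were -0.25, -0.25 and -0.13. The plot of log2 fold changes by complex shows both how many subunits lay below 0 and which ones passed the thresholds.

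**Figure D1:**
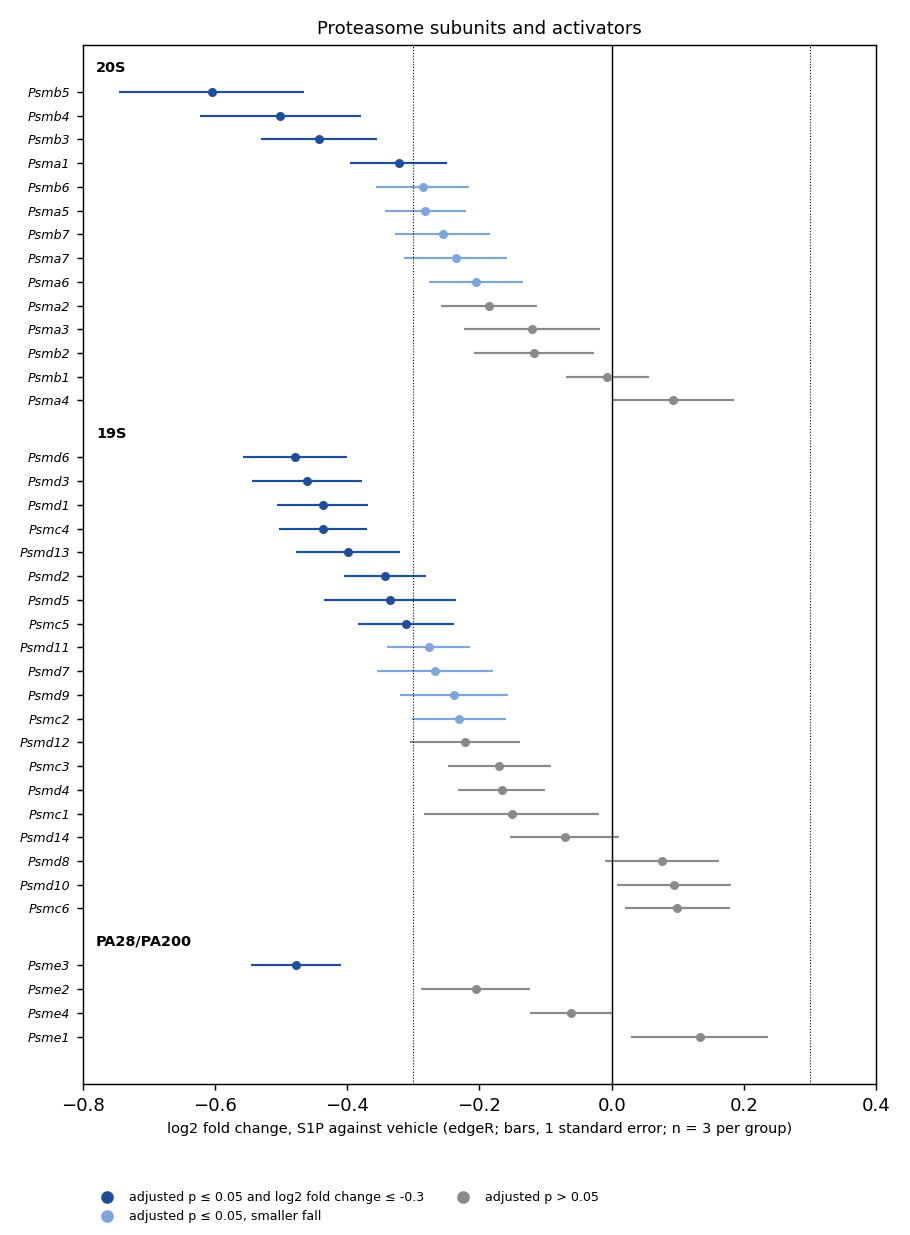
Log2 fold change of each of the 38 tested proteasome genes, S1P-treated against vehicle-treated (x axis; points are edgeR estimates, bars 1 standard error, n = 3 per group), sorted within the 20S core, the 19S particle and the PA28 and PA200 activators; dotted lines mark the fold change threshold of 0.3. Of the 38 points, 33 lie below 0, 13 pass both thresholds on that side and none passes on the other.

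In the 20S core the beta ring held the largest falls, among them the gene of a catalytic subunit. Of 7 tested beta genes 5 (71.4%) were lower at the adjusted p, beside 13.8% of all tested genes. Of these, 3 (42.9% of the 7) also passed the fold change threshold, beside 10.4% of all tested genes. Psmb5 (ENSMUSG00000022193, chromosome 14 from 54850776 to 54855481 of GRCm39) encodes the subunit with chymotrypsin-like activity and was at 16.1, 20.8 and 21.7 CPM with vehicle and at 12.6, 11.1 and 14.7 CPM with S1P. Every S1P-treated sample was below every vehicle-treated sample, and vehicle-treated replicate 1 was the lowest of its group. Psmb5 went to 65.5% of the vehicle mean, from 19.5 ± 3.02 to 12.8 ± 1.82 CPM (SD, n = 3 each), a log2 change of -0.60 ± 0.14 (SE, adjusted p = 0.00805 by edgeR). The other catalytic genes had smaller log2 changes, and the difference from Psmb5 was not tested. Psmb6, for the subunit with caspase-like activity (ENSMUSG00000018286, chromosome 11 from 70416183 to 70418684), was at 88.7, 96.4 and 95.3 CPM with vehicle and at 76.5, 72.6 and 80.7 CPM with S1P, a log2 change of -0.29 ± 0.07 (SE, adjusted p = 0.0111 by edgeR). Psmb7, for the subunit with trypsin-like activity (ENSMUSG00000026750, chromosome 2 from 38478044 to 38534099), was at 88.7, 87.6 and 91.4 CPM with vehicle and at 68.9, 77.1 and 78.6 CPM with S1P, a log2 change of -0.26 ± 0.07 (SE, adjusted p = 0.0204 by edgeR). For both genes the groups did not overlap and the adjusted p passed with a fold change under 0.3 in size, but Psmb6 missed the adjusted p without vehicle-treated replicate 2 or 3 (0.0516 and 0.0548 by edgeR) and Psmb7 without any 1 of the vehicle-treated replicates or S1P-treated replicate 1 (0.0526 to 0.0877 by edgeR). Without S1P-treated replicate 3 Psmb7 was just past both thresholds (-0.3004). In 5 alternatives, DESeq2 among them, Psmb6 also passed the fold change threshold, with values of -0.33 to -0.30.

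Psmb3 and Psmb4, which encode beta subunits without active sites of their own, were past both thresholds. Psmb4 (ENSMUSG00000005779, chromosome 3 from 94781005 to 94794272) was at 151, 144 and 150.4 CPM with vehicle and at 118, 79.5 and 117 CPM with S1P, so S1P-treated replicate 2 was far below the other S1P-treated samples and all 3 were below the vehicle-treated ones. Its log2 change was -0.50 ± 0.12 (SE, adjusted p = 0.0102 by edgeR), and -0.34 without S1P-treated replicate 2. Psmb3 (ENSMUSG00000069744, chromosome 11 from 97594073 to 97604335) was at 100.3, 110.3 and 103 CPM with vehicle and at 82.1, 66.3 and 82.0 CPM with S1P. Again S1P-treated replicate 2 was the lowest and the groups did not overlap, with a log2 change of -0.44 ± 0.09 (SE, adjusted p = 0.00354 by edgeR). The structural beta genes Psmb1 and Psmb2 had log2 changes of -0.01 (adjusted p = 0.949 by edgeR) and -0.12 (adjusted p = 0.358 by edgeR), and their groups overlapped. Psmb2 ranged from -0.034 without S1P-treated replicate 1 to -0.21 without S1P-treated replicate 2 (adjusted p = 0.0417 by edgeR). Psma8, the alpha subunit of male germ cells, had 1, 2 and 0 counts in vehicle-treated and 6, 4 and 5 counts in S1P-treated samples, and Psmb11, the beta subunit of the thymus cortex, had 2, 1 and 1 and 1, 6 and 3 counts, too few for a test. The S1P-treated counts of Psma8 were all above its vehicle-treated ones.

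Of the 7 tested genes of the alpha ring, 4 (57.1%) were lower at the adjusted p, beside 13.8% of all tested genes. Only 1 (14.3%), Psma1, also passed the fold change threshold. That share is near the 10.4% of all tested genes and the 15.0% of tested genes at the members' levels. Psma1 (ENSMUSG00000030751, chromosome 7 from 113863679 to 113875409) was at 208, 209 and 209.6 CPM with vehicle and at 158, 159 and 184 CPM with S1P. The vehicle-treated samples lay close together and every S1P-treated sample was below them, with replicate 3 the nearest, and the log2 change was -0.32 ± 0.07 (SE, adjusted p = 0.00727 by edgeR). This fold change was -0.28 without S1P-treated replicate 1 and -0.29 without S1P-treated replicate 2, both under the fold change threshold. Psma5, Psma6 and Psma7 were lower at the adjusted p, with log2 fold changes of -0.28, -0.20 and -0.24, while Psma2 (-0.19, adjusted p = 0.0769 by edgeR) and Psma3 (-0.12, adjusted p = 0.413 by edgeR) did not pass. Psma5 passed the adjusted p in all 17 alternatives, whereas Psma6 and Psma7 each missed it in 6, with values up to 0.141 and 0.158 by edgeR, and Psma7 was past both thresholds without S1P-treated replicate 3 (-0.31). Psma5 was past both with DESeq2 (-0.302), with scaling by total count only (-0.3099) and with no filter on low counts (-0.3125). Psma2 passed the adjusted p in 4 of 17 alternatives, DESeq2 among them, and Psma3 in 2. Psma3 was at -0.24 without S1P-treated replicate 2 (adjusted p = 0.0275 by edgeR) and at -0.0032 without S1P-treated replicate 1. Psma4 (ENSMUSG00000032301, chromosome 9 from 54858066 to 54866448) was the one gene of the tested 20S core with a value above 0. It was at 255, 269 and 267 CPM with vehicle and at 249, 325 and 269.8 CPM with S1P. S1P-treated replicate 2 was above all vehicle-treated samples, replicate 1 was below them, and the log2 change of 0.09 ± 0.09 (SE, adjusted p = 0.477 by edgeR) turned to -0.022 without S1P-treated replicate 2. Without S1P-treated replicate 3, 7 genes of the 20S core passed both thresholds instead of 4, beside 9.61% of all tested genes called lower in that fit.

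Several 20S genes have processed copies in the genome, which bears on how reads were counted. Of the 31-base stretches of its canonical transcript, Psmb5 shares 55.5% with other genes, most with the pseudogene Gm3375. Gm3375 was itself counted, at 27.8, 27.1 and 26.5 CPM in vehicle-treated and 18.2, 12.5 and 18.9 CPM in S1P-treated replicates 1, 2 and 3. Its log2 change was -0.70 ± 0.13 (SE, adjusted p = 0.00239 by edgeR), so both fell. The sum of Psmb5 and Gm3375 went from 46.6 ± 2.40 to 29.3 ± 5.15 CPM (SD, n = 3 each). Psmb3 shares 73.8% of its stretches, most with Gm6467, and Psma5 shares 56.4%, most with Psma5-ps, which held at most 0.772 CPM in any sample. How reads that match several genes were counted is not given in the sources used here, so the level of Psmb5 is uncertain. On the other strand, 34.9% of the exon bases of Psmb7 lie under Nek6, and the strand setting of the counting is likewise not given.

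In the 19S particle 2 of 6 ATPases (33.3%), 5 of 11 non-ATPase subunits (45.5%) and 1 of 3 assembly chaperones (33.3%) were lower past both thresholds. Over all tested genes the share was 10.4%, and over those at the members' levels 15.0%. The call among the chaperones is 1 gene and cannot be told from these shares. Of the 6 ATPases of the base, Psmc4 and Psmc5 passed both thresholds and Psmc2 the adjusted p alone. Psmc4 (ENSMUSG00000030603, chromosome 7 from 27738180 to 27749526) was at 137, 143 and 149 CPM with vehicle and at 104, 102 and 111 CPM with S1P. The S1P-treated samples lay in a narrow range under all vehicle-treated samples, with a log2 change of -0.44 ± 0.07 (SE, adjusted p = 0.000795 by edgeR). Psmc5 had a log2 change of -0.31 ± 0.07 (SE, adjusted p = 0.00852 by edgeR) with no overlap of the groups, and one of -0.26 without S1P-treated replicate 1 and -0.30 without S1P-treated replicate 2, where it missed the fold change threshold. The log2 fold changes of Psmc1, Psmc2 and Psmc3 were -0.15, -0.23 and -0.17, with edgeR adjusted p values of 0.424, 0.0306 and 0.125. Without S1P-treated replicate 2, Psmc1 was at -0.34 and past both thresholds (adjusted p = 0.00653 by edgeR), and without S1P-treated replicate 1 it was at 0.0027. Psmc3 was at -0.24 (adjusted p = 0.0122 by edgeR) and -0.10 in these fits, and Psmc2 missed the adjusted p in 4 of 17 alternatives. Psmc6 (ENSMUSG00000021832, chromosome 14 from 45567215 to 45587169), with the highest log2 fold change among 19S genes, was at 211, 223 and 217 CPM with vehicle and at 209, 257 and 232 CPM with S1P. The groups overlapped, with S1P-treated replicate 2 the highest and replicate 1 the lowest of all 6, and the log2 change was 0.10 ± 0.08 (SE, adjusted p = 0.377 by edgeR). With an offset for GC content it was -0.041, and it ranged from 0.025 without S1P-treated replicate 2 to 0.17 without S1P-treated replicate 1.

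Of the 11 non-ATPase subunits 7 (63.6%) were lower at the adjusted p, beside 13.8% of all tested genes. Of these, 5 were past both thresholds. Psmd6, a subunit of the lid (ENSMUSG00000021737, chromosome 14 from 8348762 to 8357589), fell most among all 19S genes and was at 137, 138 and 135 CPM with vehicle and at 95.5, 89.3 and 109 CPM with S1P. The vehicle-treated samples were nearly equal and every S1P-treated sample was far below them, so that the level went from 137 ± 1.26 to 98.1 ± 10.3 CPM (SD, n = 3 each) and the log2 change was -0.48 ± 0.08 (SE, adjusted p = 0.00116 by edgeR). Psmd3, a lid subunit (ENSMUSG00000017221, chromosome 11 from 98573362 to 98586812), was at 165, 161 and 161 CPM with vehicle and at 128, 102 and 123 CPM with S1P. S1P-treated replicate 2 was the lowest sample and the groups did not overlap, with a log2 change of -0.46 ± 0.08 (SE, adjusted p = 0.00205 by edgeR).

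The large scaffold subunits of the base, which dock ubiquitin receptors and carriers, were also lower. Psmd1 (ENSMUSG00000026229, chromosome 1 from 85992097 to 86070048) was at 298, 295 and 292 CPM with vehicle and at 202, 226 and 226 CPM with S1P. S1P-treated replicate 1 was the lowest of all samples, and the log2 change was -0.44 ± 0.07 (SE, adjusted p = 0.000914 by edgeR). Psmd2 (ENSMUSG00000006998, chromosome 16 from 20470346 to 20485708), was at 357, 358 and 350.0 CPM with vehicle and at 278, 276 and 286 CPM with S1P. Both groups were tight and apart, with a log2 change of -0.34 ± 0.06 (SE, adjusted p = 0.00202 by edgeR), and 44.4% of the 31-base stretches of Psmd2 are also found elsewhere, most in Gm63653. Psmd13, a lid subunit (ENSMUSG00000025487, chromosome 7 from 140461854 to 140478560), was at 128, 130.5 and 133 CPM with vehicle and at 102, 87.8 and 107 CPM with S1P. Its log2 change was -0.40 ± 0.08 (SE, adjusted p = 0.00334 by edgeR) with no overlap of the groups, and 54.2% of its exon bases lie under Cox8b and Sirt3 on the opposite strand.

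Psmd11 (-0.28) and Psmd7 (-0.27) of the lid passed the adjusted p with a smaller fall. With no filter on low counts both genes were past both thresholds (-0.3061 and -0.3013). Psmd11 was so too with scaling by total count only (-0.3037) and without S1P-treated replicate 3 (-0.3161). Psmd7 was at -0.36 and past both thresholds without S1P-treated replicate 2 and at -0.18 without S1P-treated replicate 1 (adjusted p = 0.101 by edgeR), and it missed the adjusted p in 7 of 17 alternatives. The ubiquitin receptor Psmd4 (-0.17, adjusted p = 0.0786 by edgeR) and the lid subunit Psmd12 (-0.22, adjusted p = 0.0654 by edgeR) did not pass, although all their S1P-treated samples were below the vehicle-treated ones. Psmd12 passed the adjusted p in 6 of 17 alternatives, DESeq2 among them, and ranged from -0.29 without S1P-treated replicate 2 to -0.13 without S1P-treated replicate 1. Psmd14, the deubiquitinase of the lid, had a log2 change of -0.07 (adjusted p = 0.557 by edgeR) and the lid subunit Psmd8 one of 0.08 (adjusted p = 0.547 by edgeR), and both overlapped between the groups. The 3 chaperones help to assemble the base and leave the finished particle. Of these, Psmd5 and Psmd9 were lower at the adjusted p, beside 13.8% of all tested genes. Psmd5 (ENSMUSG00000026869, chromosome 2 from 34739746 to 34764980) was at 56.0, 60.3 and 53.9 CPM with vehicle and at 50.4, 37.9 and 45.9 CPM with S1P. S1P-treated replicate 1 was close to the lowest vehicle-treated sample, and the log2 change was -0.33 ± 0.10 (SE, adjusted p = 0.0271 by edgeR). Its call was lost in 5 of the 6 fits without 1 library, without S1P-treated replicate 2 through the fold change (-0.23) and without vehicle-treated replicates 1, 2 and 3 and S1P-treated replicate 3 through the adjusted p (edgeR adjusted p of 0.0730, 0.104, 0.0551 and 0.0682). Psmd9 fell by 0.24 on the log2 scale (adjusted p = 0.0485 by edgeR), which no longer passed in 14 of 17 alternatives, DESeq2 and limma-voom among them. Psmd10 had a value of 0.09 (adjusted p = 0.443 by edgeR), with a range of 0.051 without S1P-treated replicate 3 to 0.16 without S1P-treated replicate 1.

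Of the 4 activator genes, 1 was lower past both thresholds, beside 10.4% of all tested genes, and 3 did not pass the adjusted p. Psme3, whose product forms the nuclear PA28γ cap (ENSMUSG00000078652, chromosome 11 from 101206777 to 101215813), was at 465, 443 and 475 CPM with vehicle and at 315, 341 and 338 CPM with S1P. Every S1P-treated sample was far below every vehicle-treated one. Its level went to 71.9% of the vehicle mean, a log2 change of -0.48 ± 0.07 (SE, adjusted p = 0.000512 by edgeR). Psme1 and Psme2 encode the alpha and beta chains of the interferon-induced PA28 cap and are neighbours on chromosome 14. Psme1 (ENSMUSG00000022216, chromosome 14 from 55815190 to 55822034) was at 264, 287 and 269.8 CPM with vehicle and at 260.2, 358 and 283 CPM with S1P. S1P-treated replicate 2 was far above the rest and replicate 1 was below all vehicle-treated samples, and the log2 change of 0.13 ± 0.10 (SE, adjusted p = 0.368 by edgeR) turned to -0.011 without S1P-treated replicate 2. Psme2 (ENSMUSG00000079197, chromosome 14 from 55824895 to 55829173) was at 225, 223 and 242 CPM with vehicle and at 198, 179 and 222 CPM with S1P. All S1P-treated samples were below the vehicle-treated ones, replicate 3 only by little, and the log2 change was -0.21 ± 0.08 (SE, adjusted p = 0.0832 by edgeR). Psme2 passed the adjusted p in 3 of 17 alternatives, the replicate number as a block among them (0.0473 by edgeR), and ranged from -0.30 without S1P-treated replicate 3 to -0.13 without S1P-treated replicate 2. Psme4, for PA200 (ENSMUSG00000040850, chromosome 11 from 30721725 to 30830376), was at 171, 174 and 166 CPM with vehicle and at 167, 162 and 161 CPM with S1P, which overlapped, with a log2 change of -0.06 ± 0.06 (SE, adjusted p = 0.486 by edgeR). Of the exon bases of Psme1, 51.9% lie under Emc9 on the opposite strand, and Psme2 shares 66.1% of its 31-base stretches, most with Psme2b, at 13.3 to 15.2 CPM in every sample.

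Summed over the 38 tested members, the level was 6558 to 6756 CPM in vehicle-treated and 5394 to 5968 CPM in S1P-treated samples, and the members took 0.666% to 0.682% of the counts in the former and 0.551% to 0.591% in the latter. The S1P-treated samples differed in how the fall was spread. In replicate 1 all 38 members were below their vehicle mean and 37 below every vehicle-treated sample, in replicate 2 28 and 27 were, and in replicate 3 32 and 31 were. Over all tested genes, 37.2%, 38.7% and 36.7% were below every vehicle-treated sample in these replicates. The median deviation of the members from their vehicle mean was -0.32, -0.27 and -0.18 on the log2 scale, with 20S medians of -0.32, -0.24 and -0.15, 19S medians of -0.33, -0.29 and -0.19 and activator medians of -0.14, -0.22 and -0.07. Replicate 2 thus had the widest spread, with both the lowest and the highest single values, and its deepest falls were in Psmb4 and Psmb5. Without replicate 2, 36 of 38 members were below 0 and the median was -0.24. In that fit 12 were lower past both thresholds (10 of the 13 and 2 others), beside 9.17% of all tested genes.

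**Figure D2:**
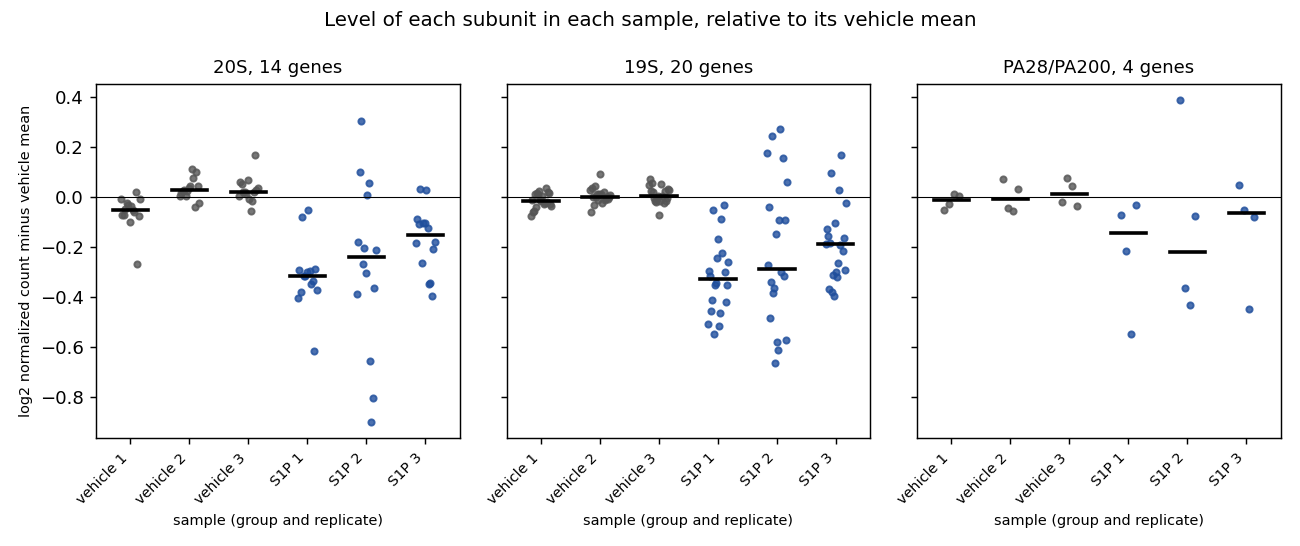
Log2 normalized count of each tested proteasome gene minus its mean in vehicle-treated samples (y axis), for each of the 6 samples (x axis), in the 20S core, the 19S particle and the activators; points are genes, thick lines medians. The medians of all 3 S1P-treated samples lie below those of the vehicle-treated samples in each panel, with points above 0 in S1P-treated replicates 2 and 3 and none in replicate 1.

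Each alpha and beta subunit stands in equal number in the core, so levels were also set per kilobase of transcript, the scale on which genes can be compared. Per kilobase of all annotated exons, the medians in vehicle-treated samples were 39.3 CPM for the 20S, 30.9 CPM for the 19S and 69.8 CPM for the activators, against 29.6, 24.6 and 59.5 CPM in S1P-treated samples. The length in use moved these levels a lot, since the vehicle medians were 62.4, 55.1 and 85.1 CPM per kilobase with the longest transcript, and 102, 91.8 and 85.1 CPM with the canonical transcript, an alternative chosen after seeing the data. Among the tested genes, the lowest level per kilobase was that of Psmb5 in the 20S, of the chaperone Psmd9 in the 19S and of Psme4 among the activators under all 3 lengths, and the highest activator was Psme2 under all 3. With the canonical transcript, Psmb5 was at 11.5 ± 1.77 CPM per kilobase in vehicle-treated samples (SD, n = 3), and the next tested 20S gene in order, Psmb1, was at 27.6 ± 0.749 CPM. With the counts of Gm3375 added, Psmb5 was at 27.4 ± 1.41 CPM per kilobase. Its mean was still the lowest but did not differ from Psmb1 beyond their spread, so its distance from the next gene depends on how shared reads were counted. With the canonical transcript, the top of the 20S order was Psma7 at 232 ± 14.1 CPM per kilobase, followed by Psma6 at 180.4 ± 3.78 CPM. Psma4 (114 ± 3.32 CPM) and Psma5 (114 ± 1.85 CPM) did not differ beyond their spread there. The order changed with the length in use. Psma6 was highest with all exons (84.6 CPM) and with the longest transcript (119.5 CPM), where Psma7 was at 51.2 and 103.5 CPM. Psma4 and Psma5 were at 59.7 and 83.3 CPM with all exons. The 3 assembly chaperones Psmd10, Psmd5 and Psmd9 were the lowest 19S genes with the canonical transcript, at 18.4 ± 0.268, 12.9 ± 0.744 and 10.7 ± 0.241 CPM per kilobase. The other 17 genes of the 19S lay between 53.5 and 122 CPM per kilobase.

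The immunoproteasome genes were compared as counterparts of the constitutive catalytic genes. Psmb8, the counterpart of Psmb5, was at 178, 182 and 185 CPM with vehicle and at 156, 139 and 165 CPM with S1P, a log2 change of -0.25 ± 0.07 (SE, adjusted p = 0.0271 by edgeR). Psmb9, the counterpart of Psmb6, was at 113, 119.9 and 117 CPM with vehicle and at 115, 115 and 115 CPM with S1P, a log2 change of -0.03 ± 0.06 (SE, adjusted p = 0.792 by edgeR), and 38.1% of its exon bases lie under Tap1 on the opposite strand. Psmb10, the counterpart of Psmb7, was at 33.9, 30.1 and 31.1 CPM with vehicle and at 22.5, 15.3 and 23.6 CPM with S1P, a log2 change of -0.62 ± 0.14 (SE, adjusted p = 0.00584 by edgeR). Thus Psmb10 was lower past both thresholds, Psmb8 passed the adjusted p alone, Psmb9 did not pass, and none was higher. Psmb8 no longer passed without vehicle-treated replicate 1, 2 or 3 (edgeR adjusted p of 0.0734, 0.0835 and 0.10) or with the offset for GC content (0.0671, and 0.0722 with the replicate number as a block as well), and without S1P-treated replicate 3 it was past both thresholds (-0.31).

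The ratio of the immunoproteasome gene to its constitutive counterpart was taken within each sample. The ratio of Psmb8 to Psmb5 was 11.1, 8.77 and 8.48 in vehicle-treated and 12.3, 12.5 and 11.2 in S1P-treated replicates 1, 2 and 3, a log2 difference of 0.36. That of Psmb9 to Psmb6 was 1.28, 1.24 and 1.23 in vehicle-treated and 1.5, 1.58 and 1.42 in S1P-treated replicates, a log2 difference of 0.26. The ratio of Psmb10 to Psmb7 moved the other way, from 0.383, 0.344 and 0.340 to 0.327, 0.199 and 0.30, a log2 difference of -0.40. The groups did not overlap for any of the 3 ratios, and each gave p = 0.1 in an exact permutation test over samples, two-sided (Benjamini-Hochberg adjusted p = 0.1 over the 3), which is the smallest p that 3 samples against 3 allow. Without S1P-treated replicate 2 the difference for Psmb10 to Psmb7 was -0.18. The ratio with Psmb5 carries the uncertainty of its pseudogene reads.

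**Figure D3:**
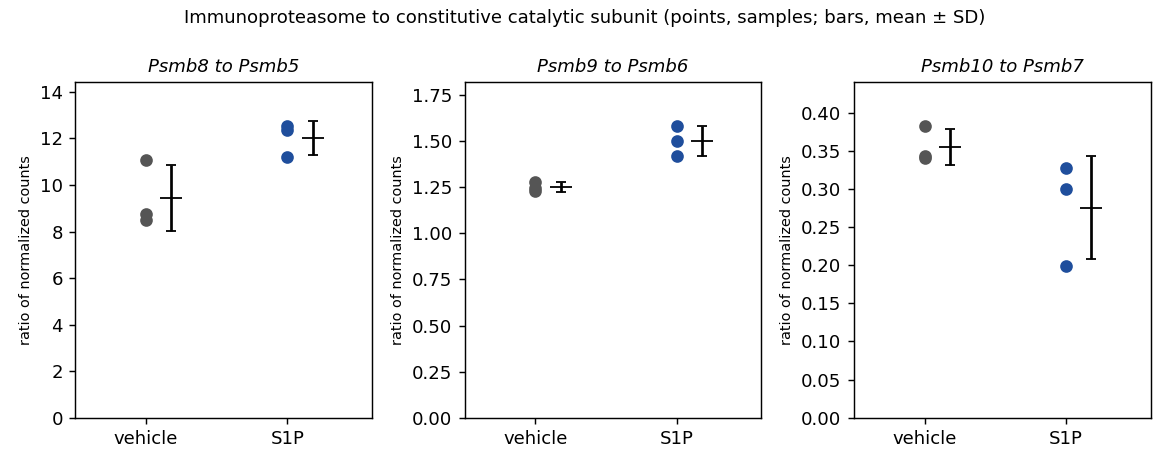
Ratio of normalized counts of each immunoproteasome gene to its constitutive counterpart (y axis, from 0) in vehicle-treated and S1P-treated samples; points are samples, bars the mean ± SD (n = 3). The ratios with Psmb5 and Psmb6 are higher in all 3 S1P-treated samples and the ratio of Psmb10 to Psmb7 is lower in all 3, with S1P-treated replicate 2 the lowest at 0.199.

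Genes that build, supply and control the proteasome were counted on lists of 32 genes in all, the 3 immunoproteasome genes included, and all of them could be tested. Of these, 6 (18.8%) were lower past both thresholds and 1 was higher, beside 10.4% and 12.7% of all tested genes. The adjusted p alone gave 12 lower and 1 higher, beside 13.8% and 14.7%, and the median log2 fold change was -0.17. Adrm1, the ubiquitin receptor of the 19S base that falls outside the naming rule, went from 76.9 ± 1.28 to 58.2 ± 5.42 CPM (SD, n = 3 each), a log2 change of -0.40 ± 0.08 (SE, adjusted p = 0.00337 by edgeR), and 80.7% of its 31-base stretches are also found in other genes, most in Adrm1b. Its partner on the list, Sem1, had 0.24 (adjusted p = 0.235 by edgeR). Sem1 ranged from 0.044 without S1P-treated replicate 2 to 0.41 without S1P-treated replicate 1 (edgeR adjusted p of 0.776 and 0.0124), past both thresholds in the latter alone. Of 5 chaperones that assemble the 20S core, Pomp (-0.24) and Psmg2 (-0.28) were lower at the adjusted p and none passed both thresholds. Psmg3 had the largest value of these at -0.44 ± 0.16 (SE, adjusted p = 0.0632 by edgeR), with levels of 5.44 to 9.34 CPM and 26.7% of its exon bases shared with a gene on its own strand. Psmg2 passed both thresholds in 4 alternatives, with values of -0.34 to -0.31, and Psmg3 in 2, at -0.47 with no filter on low counts and at -0.59 without S1P-treated replicate 3. Psmg2 missed the adjusted p in 3 others and Pomp in 4. Among 8 regulators that bind the proteasome, Usp14 (-0.22), a deubiquitinase with 49.8% of its exon bases under Thoc1 on the opposite strand, and the ligase Ube3c (-0.21) passed the adjusted p alone, which they missed in 5 and 6 of 17 alternatives. Usp14 was at -0.34 and past both thresholds with an offset for GC content, and with 1 library left out its adjusted p by edgeR reached 0.136 (without vehicle-treated replicate 2).

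NRF1, the product of Nfe2l1, is the transcription factor that raises proteasome genes when proteasome capacity falls short, after it has been pulled from the ER membrane by the VCP complex, deglycosylated by NGLY1 and cleaved by DDI2. Of 7 genes of this pathway, 1 was higher and 2 were lower past both thresholds, beside 12.7% and 10.4% of all tested genes. Nfe2l1 (ENSMUSG00000038615, chromosome 11 from 96705767 to 96720813) was at 112, 108 and 108 CPM with vehicle and at 144, 129.7 and 139 CPM with S1P. All S1P-treated samples were above all vehicle-treated ones, a log2 change of 0.34 ± 0.07 (SE, adjusted p = 0.00357 by edgeR), and without S1P-treated replicate 1 the fold change fell just under the threshold (0.2994). Vcp, the ATPase of the extraction complex, was at 491, 478 and 505 CPM with vehicle and at 371, 386 and 416 CPM with S1P, a log2 change of -0.33 ± 0.07 (SE, adjusted p = 0.00511 by edgeR). The call of Vcp was lost without S1P-treated replicate 1 (-0.29), and Vcp shares 55.4% of its 31-base stretches, most with Vcp-rs, which also fell (-0.57, edgeR adjusted p = 0.0015). Nploc4, a cofactor of VCP, went from 123 ± 2.76 to 90.9 ± 9.48 CPM (SD, n = 3 each), a log2 change of -0.44 ± 0.08 (SE, adjusted p = 0.00211 by edgeR). Ddi2 passed the adjusted p alone (-0.21), while Ufd1 (-0.21, adjusted p = 0.0758 by edgeR), Ngly1 (0.12, adjusted p = 0.295 by edgeR) and Nfe2l2 (0.17, adjusted p = 0.131 by edgeR), the gene of the related factor NRF2, did not pass. Nfe2l2 passed the adjusted p without S1P-treated replicate 1 (0.24, adjusted p = 0.0375 by edgeR) and Ufd1 with the replicate block and GC offset together (-0.25, adjusted p = 0.0282 by edgeR), and Ngly1 ranged from 0.052 to 0.18 with 1 library left out. Ddi2 missed the adjusted p in 9 of 17 alternatives.

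Of 7 ubiquitin genes and shuttle factors that carry ubiquitinated substrates to the 19S particle, 2 shuttles were lower past both thresholds, beside 10.4% of all tested genes. Ubqln4 went from 93.1 ± 3.02 to 66.3 ± 7.50 CPM (SD, n = 3 each), a log2 change of -0.49 ± 0.08 (SE, adjusted p = 0.00157 by edgeR). Ubqln2 had one of -0.34 ± 0.09 (SE, adjusted p = 0.0136 by edgeR), which was lost without vehicle-treated replicate 2 (adjusted p = 0.0622 by edgeR) and without S1P-treated replicate 2 (-0.27). The ubiquitin genes Ubb (0.05) and Rps27a (0.08) and the activating enzyme Uba1 (-0.16) did not pass. Uba1 passed the adjusted p in 2 of 17 alternatives, DESeq2 (0.0148) and the length offset, and with 1 library left out Ubb ranged from 0.0007 to 0.095 and Rps27a from 0.020 to 0.12.

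**Figure D4:**
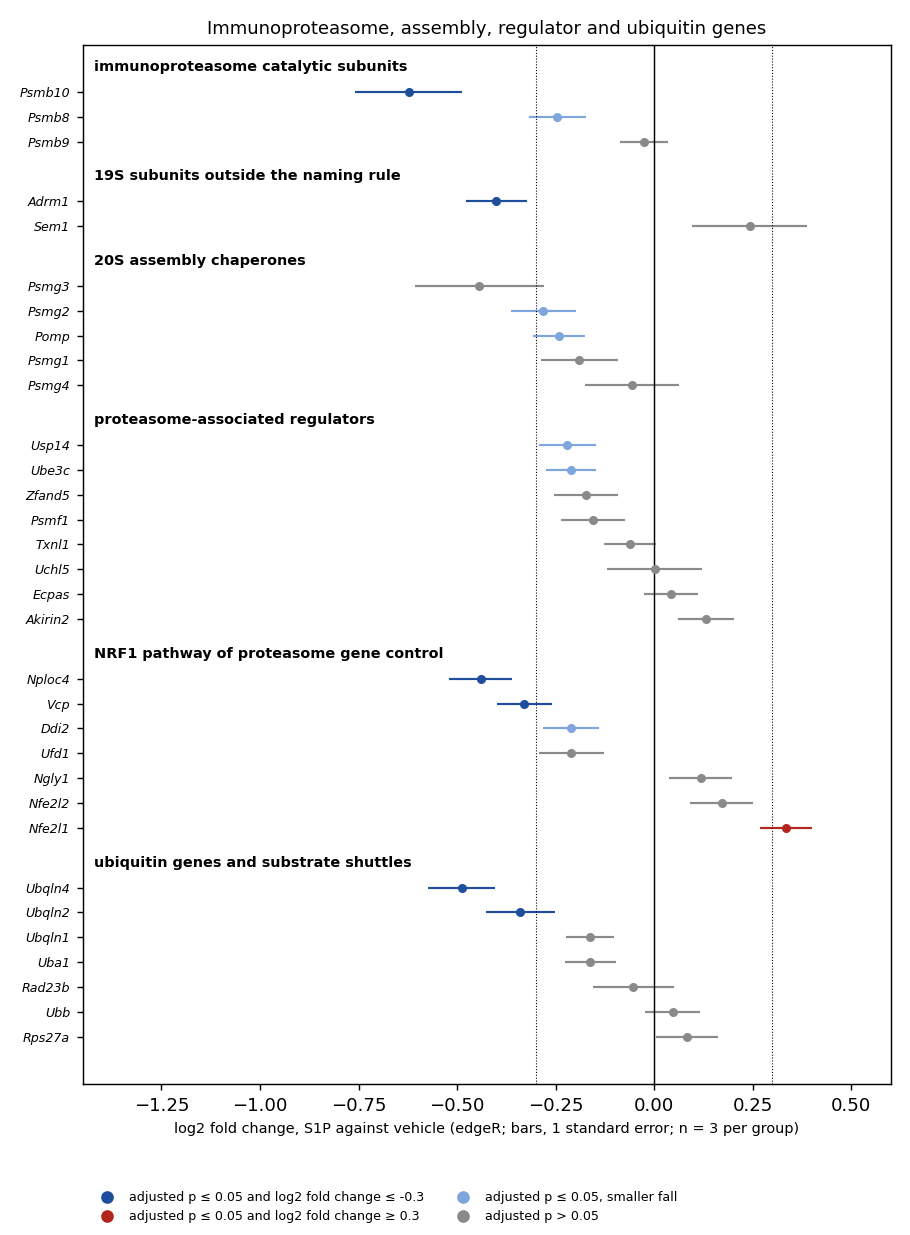
Log2 fold change, S1P-treated against vehicle-treated (x axis; points are edgeR estimates, bars 1 standard error, n = 3 per group), of the 32 immunoproteasome, assembly, regulator, NRF1 pathway and ubiquitin genes, sorted within their lists; dotted lines mark the fold change threshold of 0.3. Nfe2l1 is the one gene past both thresholds above 0, and 6 genes pass them below 0.

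The start regions of the members were searched for a feature that the naming rule did not use, the core of the antioxidant response element, to which NRF1 and NRF2 bind. The core was spelled TGACNNNGC or TGAGNNNGC and searched on both strands in RefSeq windows of build GRCm38.p6 that run from 250 bases before to 50 bases after a gene's start. Of the 40 members 33 had a window, matched by symbol. The core was found in 15 of the 33 (45.5%), against 30.8% of the 27025 genes of the table, and in 7 of 12 genes of the 20S, 7 of 17 of the 19S and 1 of 4 activators. It was in 5 of the 12 members with a window that were lower past both thresholds and in 10 of the 20 tested members that were not. The other 2 motifs on both strands were CCAAT, found in 39.4% of the members and 41.1% of all genes, and GGGCGG, found in 63.6% and 38.2%. The 27025 genes include genes that were not tested here, and no share was taken over genes at the members' levels. A match of letters is a description and not a binding site. The 5 members in which the whole core lies within 50 bases before the start are shown with the 150 bases before the start, 5′ to 3′ on the gene's strand, with the core in capitals, because in these the core lies nearest upstream of the start. Of these 5, Psmb5 and Psmb3 were lower past both thresholds, Psmb6 and Psmd9 passed the adjusted p alone and Psmd12 did not pass.
Psmb5, chr14:54617996-54618145, minus strand: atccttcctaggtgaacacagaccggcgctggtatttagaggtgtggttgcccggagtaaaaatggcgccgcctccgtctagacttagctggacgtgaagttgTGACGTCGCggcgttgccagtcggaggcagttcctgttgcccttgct
Psmb3, chr11:97703284-97703433, plus strand: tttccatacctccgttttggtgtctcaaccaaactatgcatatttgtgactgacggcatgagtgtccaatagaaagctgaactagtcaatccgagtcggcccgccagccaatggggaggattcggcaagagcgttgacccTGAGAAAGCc
Psmb6, chr11:70525207-70525356, plus strand: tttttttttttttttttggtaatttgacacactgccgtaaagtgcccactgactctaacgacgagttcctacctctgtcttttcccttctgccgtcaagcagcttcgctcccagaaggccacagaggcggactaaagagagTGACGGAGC
Psmd9, chr5:123228040-123228189, plus strand: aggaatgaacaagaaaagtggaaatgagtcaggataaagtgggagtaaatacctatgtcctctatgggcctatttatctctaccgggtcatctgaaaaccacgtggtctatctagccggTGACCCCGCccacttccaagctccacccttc
Psmd12, chr11:107479378-107479527, plus strand: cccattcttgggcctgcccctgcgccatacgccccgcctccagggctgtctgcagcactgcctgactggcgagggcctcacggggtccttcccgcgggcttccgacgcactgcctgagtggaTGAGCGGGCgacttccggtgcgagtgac

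In these windows the core begins 47 bases before the start of Psmb5, 10 before that of Psmb3, 9 before that of Psmb6, 31 before that of Psmd9 and 28 before that of Psmd12. In Psmd9 the core shares bases with a GGGCGG motif on the opposite strand.

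The GC content of the transcripts varied with the deviation of the members in S1P-treated samples. Across the 38 tested members, Pearson's r of the GC content of the canonical transcript with the deviation was -0.30, -0.46 and -0.51 in S1P-treated replicates 1, 2 and 3, against -0.03, -0.19 and -0.11 across 13260 tested genes. Genes of a sample share its library and are not replicates, and the 3 values share the vehicle-treated samples, so these are descriptions. In the 13 members with the lowest GC content (37.6% to 46.6%) the medians were -0.26, -0.07 and -0.09 on the log2 scale. The 12 members in the middle (47.1% to 51.7%) had medians of -0.39, -0.29 and -0.24 and the 13 with the highest GC content (51.9% to 58.4%) had -0.32, -0.36 and -0.21. The members with low GC content, which range from Psmc6 and Psmd10, with log2 fold changes above 0, to Psma1 and Psmd5, both lower past both thresholds, thus had the median nearest to the vehicle mean in all 3 replicates. With an offset for GC content fitted per library, 12 of the 13 members past both thresholds stayed so (Psmc5 was at -0.30, just under the fold change threshold), 34 of 38 members were below 0, and the part of GC content in the differences between members was not tested further.

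**Figure D5:**
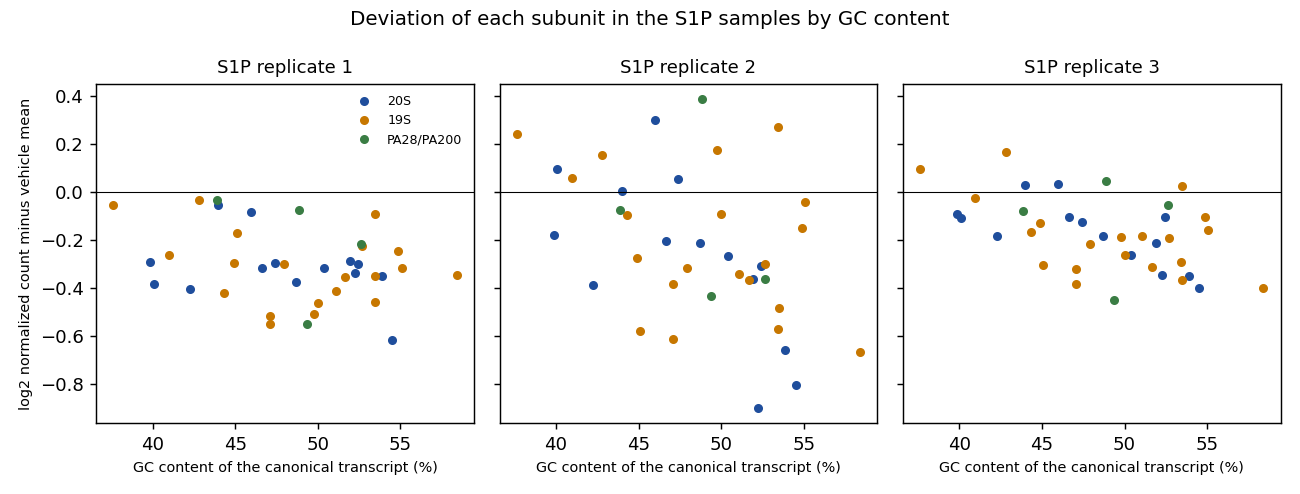
Log2 normalized count of each tested proteasome gene minus its vehicle mean (y axis) against the GC content of its canonical transcript in percent (x axis), in each S1P-treated replicate; points are genes, coloured by complex. The points slope down to the right in all 3 panels, with r of -0.30, -0.46 and -0.51 over 38 genes.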

How the data were processed

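Counts of 6 RNA-seq samples were analysed, 3 of S1P-treated and 3 of vehicle-treated CD8⁺ T cells, each sample being 1 replicate. Libraries of polyadenylated RNA kept the strand and were sequenced in pairs, and the authors passed the reads through FastQC, Trim Galore and STAR. The deposited values are whole-number counts per gene from featureCounts, as the authors made them, without normalization. The submitters' processing notes name the build GRCm39. Tool versions, the strand setting, the annotation release and how reads with several matches were counted are not given in the sources used here.

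In R 4.3.3, counts were scaled by TMM and compared in edgeR 4.0.16 (quasi-likelihood test, treatment as the sole term) over the genes that filterByExpr kept, and p-values were adjusted by Benjamini-Hochberg. The study's thresholds were used, 0.05 for the adjusted p and 0.3 for the log2 fold change. Log2 deviations and ratios added a pseudocount of 0.5 to the counts. Symbols, positions, lengths, GC content and exon overlap came from GENCODE release M39 of GRCm39, which holds 56323 of the 56941 identifiers, and shared sequence was counted as stretches of 31 bases found in another gene. Values of every sample are given for the 12 members with the largest change past both thresholds, the catalytic and immunoproteasome genes, the activators and the largest rise and fall of the 20S and 19S, and pathway genes are described where past both thresholds or largest in their list. Other genes are named to account for each member, and Vcp and Nfe2l1 were given by sample after their values were seen. Members and lists were chosen with earlier results of these data known, and some genes of the lists are not reported here. Alternatives were DESeq2 1.42.0, limma-voom, other factors, filters, thresholds and lengths, offsets for GC content or length (lowess, span 0.3), the replicate number as a block, and each library left out. Limma 3.58.1 gave the voom fit. The edgeR, DESeq2 and limma-voom fits with treatment as the sole term were run on simulated counts before use, and the other steps and settings were not. With 3 samples per group, precision is limited by their spread, and no interval on single counts is given.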

Additional observations from a re-analysis of the deposited data

How the results depend on the processing

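Of the 13 members called lower, 10 kept the call in each of 17 alternatives (other tools, factors, filters, offsets, the replicate block and each library left out), and Psma1, Psmc5 and Psmd5 lost it in 3, 6 and 5 of them. No member was called higher in any of the 17. The adjusted p alone gave 22 lower members, 9 of them of the 20S. A threshold of 0.5 on the log2 fold change left 2, both of the 20S, with 0 of the 19S and 0 activators. No share of all tested genes at 0.5 is given here, and the split by complex moved with single libraries. Psmb4 (-0.5011 with all 6 samples) was at -0.34 without S1P-treated replicate 2. Psmd3 was at -0.53 without S1P-treated replicate 1 and Psmd6 at -0.57 without S1P-treated replicate 3. Psme3 was at -0.51 without vehicle-treated replicate 2. Leaving out 1 library gave 11 to 16 lower members, 3 to 7 lower 20S genes, and medians of -0.29 to -0.20 over all members. These fits called 7.12% to 11.1% of all tested genes lower. The highest counts and the lowest median came without S1P-treated replicate 3. Among other alternatives, upper-quartile factors gave 11 lower members, DESeq2 15, total count only 16 and no filter on low counts 17. They called 9.07%, 3.94%, 11.4% and 4.67% of all their genes lower. The median level per kilobase in vehicle-treated samples was 62.4 (20S), 55.1 (19S) and 85.1 CPM (activators) with the longest transcript and 102, 91.8 and 85.1 CPM with the canonical transcript, chosen after seeing the data, where annotated exons gave 39.3, 30.9 and 69.8 CPM. Directions turned for 7 members and for Psmb9, none of which passed the test with all 6 samples. Psmc6 was -0.041 with the GC offset and -0.042 with the replicate block and GC offset, Psmb9 was 0.041 and 0.042 with these and 0.0013 with the length offset, and Psmb1 was 0.016 with upper-quartile factors. With 1 library left out, Psme1 ranged from -0.011 to 0.23, Psma4 from -0.022 to 0.17 and Psmd8 from -0.029 to 0.15, negative without S1P-treated replicate 2. Psmb1 ranged from -0.032 to 0.016, Psmc1 from -0.34 to 0.0027 and Psmd14 from -0.14 to 0.016, positive without S1P-treated replicate 1 and for Psmb1 (0.010) also without vehicle-treated replicate 2. The cause was not tested. Of the 9 members past the adjusted p alone, 2, Psma5 and Psmd11, passed it in all 17 alternatives, and of 6 pathway genes 0 did. Of the 16 tested members that did not pass it, 8 passed in at least 1 alternative, Psmb2, Psmc1, Psmc3 and Psmd4 only without S1P-treated replicate 2. Deviations from the group mean had r of 0.115, -0.003 and 0.047 between same-numbered samples of replicates 1, 2 and 3. Differently numbered samples had r of -0.093 to 0.044. Deviations centred within groups of 3 are not independent, so these values do not decide whether the numbers mark pairs. The numbers were not taken as pairs in the main fit. With the replicate block the count of lower members was 13, all of them among the 13, beside 10.7% of all tested genes. Counting error is small at these levels, and Psma8 and Psmb11, with at most 6 counts in a sample, were not tested.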
